A study of Mus musculus with 18 samples.

Results

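Hormone-sensing luminal cells were compared with basal cells of the mouse mammary gland across all genes, in libraries of RNA from sorted cells. The libraries whose titles name either population were used, 6 hormone-sensing luminal (HSL) and 6 basal, which is 12 of the 18 libraries of the series. The donors were nulliparous mice of 12 weeks, all of genotype MMTV-Cre and all untreated. This transgene places Cre under the control of a mouse mammary tumour virus promoter, and both populations carry it, so neither is a wild-type reference. Both populations came from digested glands by sorting with antibodies to EpCAM, CD49f and CD61 and to a lineage set of Ter119, CD45 and CD31. Basal cells were CD49f high and CD61 positive, and HSL cells CD49f low and CD61 negative. Each sample number from 1 to 6 names 1 basal and 1 HSL library. The labels do not say whether a number is 1 animal, although the design speaks of 6 animals.

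The mammary duct is a bilayer. Its outer, basal cells contract under oxytocin to eject milk, rest on the basement membrane and share many genes with smooth muscle. The inner, luminal cells line the lumen and have an apical surface, and their hormone-sensing subset carries the receptors for oestrogen, progesterone and prolactin and relays those signals to neighbouring cells.

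The labels were checked against 4 markers. Krt14, a keratin of the basal layer, ran from 3732 to 9426 CPM (counts scaled to a common library total, with TMM factors) in basal libraries, median 7027, and from 3.82 to 18.5 in HSL libraries, median 8.72. Acta2, smooth muscle actin, ran from 12337 to 22968 in basal libraries, median 18132, and from 10.5 to 66.5 in HSL libraries, median 23.8. Neither gene had overlapping groups. Prlr, the prolactin receptor, ran from 24.1 to 117 CPM in basal libraries, median 60.7, and from 1117 to 3115 in HSL libraries, median 2453. Foxa1, a pioneer factor of luminal cells, ran from 10.6 to 23 in basal libraries, median 16.4, and from 377 to 605 in HSL libraries, median 547. Every library had the markers of its label.

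Short stretches upstream of gene starts are shown because both luminal markers of the label carry the same letters there. The letters TGTTTAC, a core that forkhead factors such as Foxa1 bind, were searched on both strands in RefSeq promoters of build GRCm38.p6, which run from 250 bases before to 50 bases after a start. They lie 215 bases before a start of Prlr and 141 bases before a start of Foxa1. The matched letters, or their reverse complement, are in capitals, and each stretch is written along its gene.
Prlr, chr15:10223666-10223722, plus strand: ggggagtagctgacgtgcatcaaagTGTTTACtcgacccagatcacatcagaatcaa
Foxa1, chr12:57546221-57546277, minus strand: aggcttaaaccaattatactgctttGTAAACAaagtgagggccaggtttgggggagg
For basal genes the stretches show the CArG box, the binding sequence of serum response factor, which controls smooth muscle genes together with cofactors of the myocardin family. They belong to 4 contraction genes out of 17 with a promoter in the table, a list written after the values were seen.
Myl9, chr2:156775278-156775337, plus strand: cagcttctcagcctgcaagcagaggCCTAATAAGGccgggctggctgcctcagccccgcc
Cnn2, chr10:79988519-79988578, plus strand: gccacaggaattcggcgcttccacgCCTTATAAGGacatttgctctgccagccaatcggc
Myl6, chr10:128493025-128493084, minus strand: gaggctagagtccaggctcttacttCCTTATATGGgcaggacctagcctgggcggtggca
Vcl, chr14:20929148-20929205, plus strand: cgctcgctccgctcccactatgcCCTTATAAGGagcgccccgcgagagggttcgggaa

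Total gene counts ran from 29899462 to 91095830 in basal and from 26516293 to 52404937 in HSL libraries. Sample 1 stood apart. The log2 ratios of HSL to basal in sample 1 had a slope of 0.667 on the median of the other 5 samples across genes, where the other 5 had slopes from 0.935 to 1.064 on theirs, and 90.57% of called genes had the fitted direction in it, against 98.66 to 99.49% in the others. Its HSL library held the highest summed level of 10 basal markers among HSL libraries, 189.5 CPM against 38.6 to 74.5 in the other 5. All 12 endothelial markers were called lower in HSL, with sums of 133 to 395 CPM in basal and 25.4 to 80.4 in HSL libraries. All 12 fibroblast markers were lower, with sums of 978 to 1944 against 39.5 to 113 CPM. Of 10 pericyte markers 9 were lower and Notch3, also a gene of luminal cells, was higher, with sums of 146 to 259 against 80.5 to 156 CPM. Of 6 leukocyte markers tested 5 were lower and Ptprc was not called; all 4 erythroid markers were lower. Of 8 markers of alveolar progenitors, the third sorted population, 4 were higher, 2 lower and 2 not called, with sums of 2637 to 5207 CPM in basal and 931 to 2569 in HSL libraries. Of 6 adipocyte markers only Fabp4 passed the filter on low counts, and it was lower, at 84.9 to 286 against 9.95 to 54.3 CPM. Without sample 1, 3 adipocyte markers passed it and all 3 were lower. In bulk RNA, fewer cells of a type and less RNA per cell cannot be told apart.

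Most of the transcriptome differed between the populations. Of 15601 genes tested, 10152 (65.1%) were called at an adjusted p under 0.05, with 4671 (29.9%) higher in HSL and 5481 (35.1%) lower. A call together with a difference of at least 2-fold was made for 6134 genes (39.3%), of which 2421 (15.5%) were higher and 3713 (23.8%) lower. The groups did not overlap in 6003 genes (38.5%), all 6 HSL libraries lying above in 2689 (17.2%) and below in 3314 (21.2%). The HSL to basal ratio had 1 sign in all 6 samples for 8767 called genes (86.36%). These shares are the background for every family count that follows.

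The sizes were lopsided, and the larger the fold the more so. The central log2 fold change was -0.06, and the middle of the distribution ran from -1.04 at the 25th to 0.62 at the 75th percentile. The tails were unequal, at -7.81 for the 1st and 4.81 for the 99th percentile. At 4-fold or more 1133 genes were higher and 2470 lower, at 16-fold or more 356 and 1073, and at 64-fold or more 23 and 459. No gene was called 256-fold higher, whereas 131 were called at least 256-fold lower. The median also shifted with level: it was 0.24 for genes that reached 100 to 1000 CPM in the higher population and -0.37 for those that reached 1 to 10 CPM.

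**Figure D1:**
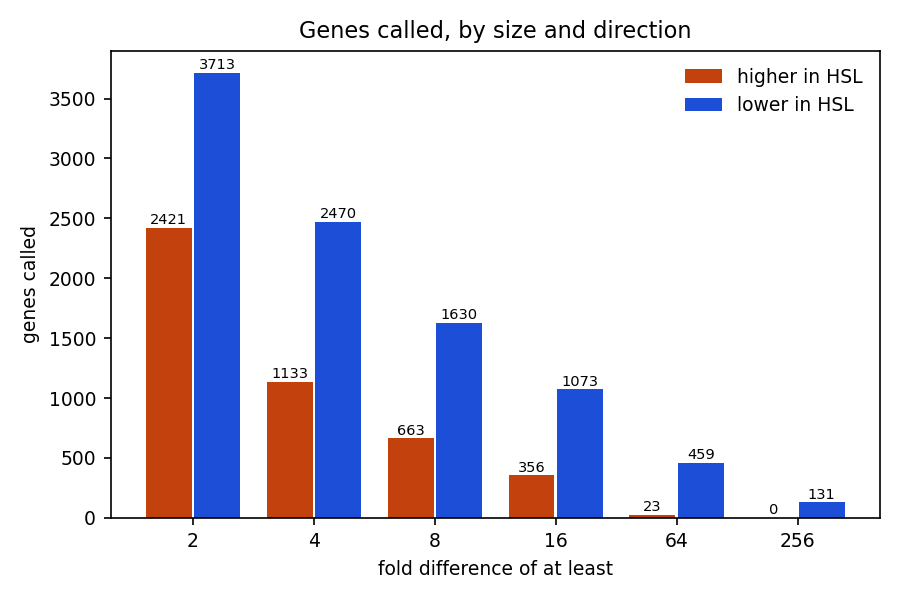
Bars give the number of genes called in HSL against basal libraries at or above each fold difference (x axis), orange for higher and blue for lower in HSL. Lower genes outnumber higher ones 3713 to 2421 at 2-fold and 459 to 23 at 64-fold.

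Among well expressed genes the folds higher in HSL stopped near a common size. Of the genes called at least 16-fold and reaching a mean of 50 CPM in the higher population, 140 were higher and 348 lower. None of the 140 passed 64-fold, and the largest, Proc, which encodes the anticoagulant protein C, was at log2 5.40 ± 0.23 (estimate ± standard error throughout). Their mean level in basal libraries was 2.07 to 6.40% of that in HSL libraries, median 3.96%. The 348 lower genes spread much further, with HSL libraries at 0.016 to 10.2% of the basal level, median 1.49%, and 196 of them passed 64-fold. The 16-fold limit itself bounds the upper end of both ranges, so the ranges are given as a description. By sample, summed hormone-sensing markers in the basal library were 3.16 to 5.79% of those in the HSL library of its number. Summed basal markers in the HSL library were 0.0882 to 0.668% of those in its basal partner. Single markers spread further. In sample 1 the 10 hormone-sensing markers ran from 2.00 to 28.0% and the 10 basal markers from 0.488 to 3.68%. In sample 4 these ranges were 0 to 15.9% and 0.0127 to 2.88%. Whether the basal counts of the genes higher in HSL came from basal or from HSL cells was not tested.

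**Figure D2:**
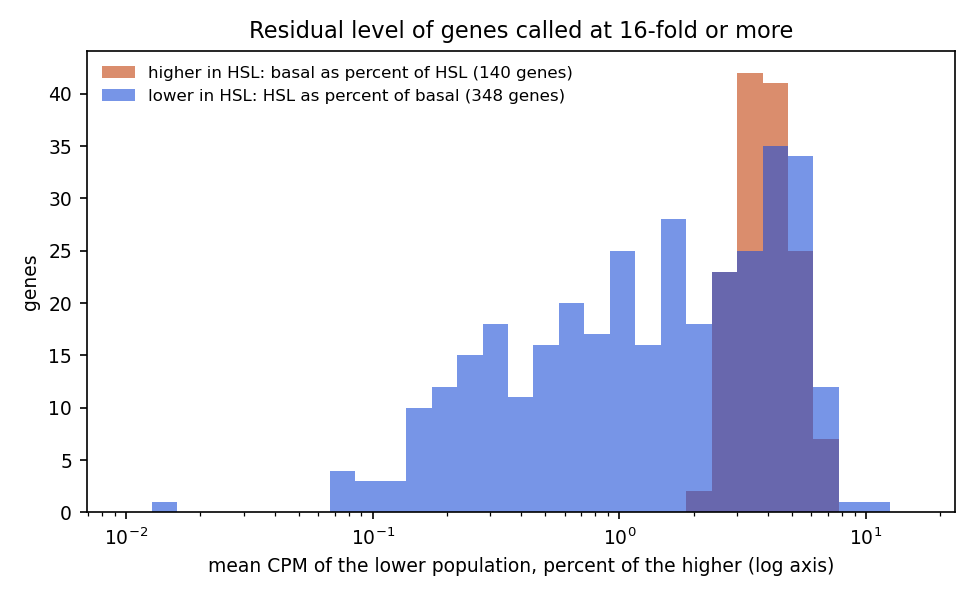
Histogram of genes called at 16-fold or more with a mean of at least 50 CPM in the higher population, by the mean CPM of the lower population as a percent of the higher (log axis). The 140 genes higher in HSL (orange) lie between 2.07 and 6.40%, and the 348 lower genes (blue) reach down to 0.016%.

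**Figure D3:**
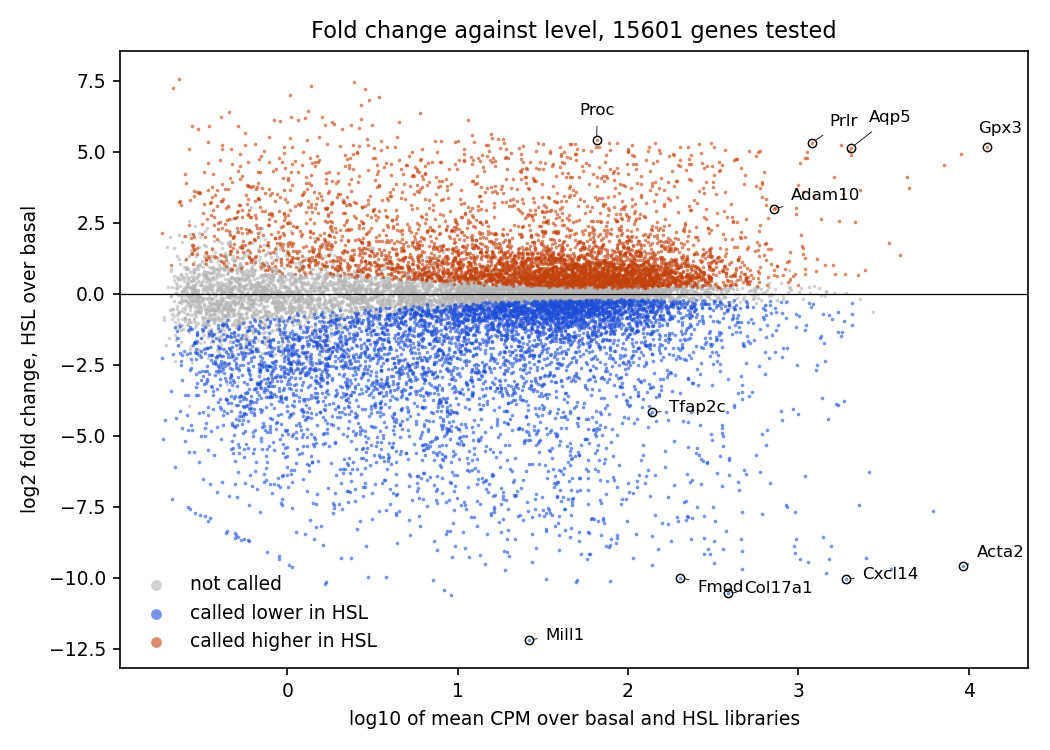
Each point is 1 of 15601 genes, placed by the log10 of its mean CPM over basal and HSL libraries (x axis) and its log2 fold change, HSL over basal (y axis); orange and blue mark calls and grey the rest. Orange points with a mean of at least 50 CPM in HSL libraries go no higher than Proc, 5.40, while blue points reach below -10. Among genes that reached 10 to 100 CPM in the higher population the highest value is 6.36.

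The 15 largest folds lower in HSL, among genes with a mean of 50 CPM or more, no overlap between groups and at most 10% shared span, included Col17a1, Cxcl14, Slpi and Mill1 beside the keratins Krt14 and Krt5 and the smooth muscle genes Acta2, Myh11 and Cnn1. Col17a1, the transmembrane collagen of hemidesmosomes, ran from 437 to 1067 CPM in basal libraries, median 789, and from 0 to 1.57 in HSL libraries, median 0.381 (log2 -10.55 ± 0.86, adjusted p = 2.26e-05). Cxcl14, a chemokine of epithelia, fell from a median of 3941 (1219 to 5555) to 3.42 (2.27 to 5.42) CPM (-10.04 ± 0.53, adjusted p = 2.77e-06). Slpi, a secreted inhibitor of leukocyte proteases, fell from 2466 (531 to 2717) to 2.68 (1.25 to 12.4) CPM. The limits require groups that do not overlap, so that separation follows from the choice of genes. Mill1, a relative of MHC class I, had 16673 counts over the 6 basal libraries and 2 over the HSL libraries, a ratio of 6535 after scaling to the TMM-adjusted library totals, with an exact 95% interval from 1809 to 53960, which covers counting error only. In GRCm38, Col17a1 (ENSMUSG00000025064) spans chromosome 19 from 47646344 to 47692094, Cxcl14 chromosome 13 from 56288643 to 56296551, and Mill1 chromosome 7 from 18245347 to 18266092.

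Under the same limits the 15 largest folds higher in HSL included Hp, Ctse, Ffar4, Gpx3 and Slc5a5. Hp, the haemoglobin-binding haptoglobin, ran from 3.58 to 15.1 CPM in basal libraries, median 6.81, and from 169 to 361 in HSL libraries, median 284 (log2 5.31 ± 0.20, adjusted p = 8.44e-07). Ctse, the aspartic protease cathepsin E, rose from 3.54 (1.96 to 8.16) to 176 (46.4 to 294) CPM (5.29 ± 0.28). Ffar4, a receptor for long-chain fatty acids, rose from 2.45 (1.22 to 3.33) to 85.6 (69.1 to 116) CPM (5.26 ± 0.19). That these 3 had no overlap follows from those limits. Gpx3, the secreted glutathione peroxidase, reached 8009 to 39079 CPM in HSL libraries, median 28691, against 245 to 1840.2 in basal libraries (5.16 ± 0.23). Slc5a5, the sodium iodide symporter, reached 397 to 4945 CPM against 10.1 to 211 (5.22 ± 0.21), and its range within HSL libraries was wide. In GRCm38, Hp spans chromosome 8 from 109575128 to 109579172, Ctse chromosome 1 from 131638306 to 131675505 and Gpx3 chromosome 11 from 54902453 to 54910377.

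Of 23 basal and mesenchymal factors tested 22 were lower in HSL and 1 was higher, with a median log2 fold change of -3.48 against -0.06 over all genes. Irx4, an Iroquois homeobox factor, was at 189.7 to 267 CPM in basal libraries, median 214, and at 0.329 to 1.00 in HSL libraries, median 0.604 (-8.45 ± 0.20, adjusted p = 3.59e-07). Snai2, the zinc finger repressor Slug, was at 44.1 to 77 against 0.119 to 0.397 CPM (-7.59 ± 0.24), and Id4, an inhibitor of helix-loop-helix factors, at 183 to 454 against 0.119 to 2.23 (-8.54 ± 0.39). The lone factor in the other direction was Meis1, a homeobox cofactor, at 8.51 to 14.3 in basal and 23.8 to 31.9 CPM in HSL libraries (1.28 ± 0.14, adjusted p = 8.42e-05). Id4 shares 29.1% of its span with another gene, so its level is uncertain.

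Luminal and epithelial factors went mostly the other way: 17 of 25 were higher, 4 lower and 4 not called, with a median of 1.73. Spdef, an ETS factor of secretory epithelia, rose from a median of 0.96 (0.564 to 2.91) to 33 (30.6 to 103) CPM (5.12 ± 0.25, adjusted p = 1.92e-06). Bhlha15, known as Mist1, a factor that builds the secretory apparatus, rose from 0.416 (0 to 2.39) to 20.8 (4.48 to 43.5) CPM (5.57 ± 0.96, adjusted p = 1.26e-03), and by 6.28 without sample 5. Tfap2c, an AP-2 factor placed on the luminal list, went against its list. It was at 232 to 301 CPM in basal libraries, median 252, and at 8.33 to 33.2 in HSL libraries, median 13.5 (-4.18 ± 0.29, adjusted p = 1.02e-05), with no overlap.

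Families of factors split between their members. Of 14 Sox factors 3 were higher and 8 lower: Sox9, a factor of luminal progenitors in other settings, was at 198 to 359.6 in basal and 844 to 938 CPM in HSL libraries (1.71 ± 0.12), while Sox5 fell by 4.63 ± 0.49. Tbx3 and Tbx2, neighbouring kinds of T-box repressor, moved apart, Tbx3 from a median of 106 to 329 CPM (1.73 ± 0.15) and Tbx2 from 26.2 to 0.273 CPM (-6.53 ± 0.61). Of 21 forkhead factors 5 were higher and 11 lower, with Foxa1 (4.97 ± 0.21) and Foxq1 (4.64 ± 0.46) at 1 end and Foxo1, a target of insulin signalling, at -2.0 ± 0.19. Foxq1 shares 66.1% of its span with another gene. Of 22 Kruppel-like and Sp factors 14 were lower and 5 higher, among them Klf13 (-2.0 ± 0.25) and Klf6 (1.60 ± 0.13). Zfp genes were close to balanced, with 98 higher and 90 lower of 335, a median of 0.06 and 56.1% called against 65.1% of all genes. Mrtfa, the myocardin-related cofactor of serum response factor, was at 40.4 to 71.6 in basal and 13.8 to 29 CPM in HSL libraries (-1.33 ± 0.19, adjusted p = 5.19e-04).

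Promoter letters were counted over all genes with a RefSeq promoter, 11094 of 15601 by symbol, with 14203 promoters. The forkhead letters TGTTTAC stood in 2.53% of all promoters, in 4.48% of 290 promoters of genes at least 16-fold higher, and in 2.65% of 980 promoters of genes at least 16-fold lower. The GATA letters AGATAA stood in 6.59, 10.3 and 7.45%, and the TEAD letters GGAATG in 12.7, 18.6 and 15.2%, in the same order. The CArG box stood in 1.30% of all promoters, 0.690% of the higher and 2.14% of the lower set. Both strands were searched, the motifs do not contain one another, and these shares are a description without a test. The contraction genes with a CArG box shown above, from the list written after the values were seen, fell in HSL. Myl9, the light chain of smooth muscle myosin, fell by 8.63 ± 0.42, Cnn2, a calponin, by 3.59 ± 0.11, Myl6 by 1.77 ± 0.08 and Vcl, vinculin, by 1.63 ± 0.14. Those 4 had no overlap between groups.

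Matrix genes were mostly lower in HSL. Of 36 collagen chains tested 31 were lower, 3 higher and 2 not called, with a median of -4.80. Elastic fibre and microfibril genes were lower in 19 of 21 (median -4.93), matricellular glycoproteins in 21 of 28 (-3.23) and serpins in 14 of 16 (-3.59), with 1, 1 and 0 members higher; without sample 1 a second matricellular gene was called higher. Fibroblast markers moved with these lists, as given above, at a median of -3.33 over 12 markers, and the part of other cells in the lists was not tested. Postn, periostin, was at 1311 to 3847 CPM in basal libraries, median 2908, and at 4.18 to 17 in HSL libraries, median 6.6 (-8.56 ± 0.56). Ltbp2, a microfibril-associated protein, was at 1141 to 2067 against 5.15 to 31 CPM (-7.43 ± 0.50). Spon2, a secreted adhesion protein, was at 406 to 794 against 0.0397 to 3.29 (-9.50 ± 0.73), and Fmod, the collagen-binding fibromodulin, at 147 to 504 against 0.0397 to 0.511 (-10.00 ± 0.48).

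The collagens that were higher in HSL were Col8a1, Col6a3 and Col8a2. Col8a1, a short-chain collagen, ran from 4.48 to 15.7 CPM in basal libraries, median 7.88, and from 75.2 to 318 in HSL libraries, median 208 (4.55 ± 0.31, adjusted p = 9.05e-06), with no overlap. Col6a3, a chain of beaded microfibrils, was higher in 5 of 6 samples and lower in sample 1. Its HSL level was 10.9 CPM in sample 1 and 110.3 to 261 in the other 5, so the groups overlapped (2.97 ± 0.64, adjusted p = 3.94e-03). In samples 1 to 3 alone it was not called, with an adjusted p of 0.115. Ltbp1, the paralog of Ltbp2, was the elastic fibre gene that went up, from 20.8 (15.8 to 43.8) to 236 (51.6 to 313) CPM (2.82 ± 0.32).

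Proteases split by kind. Of 33 ADAM and ADAMTS proteases 22 were lower and 4 higher, and Adamts18, a secreted matrix protease, was at 51.3 to 236 CPM in basal against 0.0299 to 0.92 in HSL libraries (-8.44 ± 0.42). Adam10, the sheddase that cleaves Notch and cadherins, was at 142 to 179.7 in basal and 884 to 1659.6 CPM in HSL libraries (2.98 ± 0.14, adjusted p = 1.59e-06), with a narrow range in the basal group. Membrane-bound and secreted serine proteases were higher in 11 of 18 and lower in 4. Tmprss2, a transmembrane protease of luminal epithelia, rose from 25.1 (11.3 to 50.2) to 786 (201 to 1396) CPM (4.75 ± 0.24), whereas Prss12 fell by 6.40 ± 0.84. In the coagulation and plasminogen list 7 of 23 were higher and 13 lower. F3, the tissue factor that starts coagulation, rose from 68.6 (23.8 to 146) to 1116 (248 to 1858) CPM (3.86 ± 0.17) together with Proc, while Plat, the activator of plasminogen, fell from 459.6 (157 to 555) to 2.3 (1.14 to 7.19) CPM (-7.34 ± 0.65). Serpinh1, the collagen chaperone of the serpin family, fell from 1086 (965 to 1999) to 24 (17.7 to 142) CPM (-5.31 ± 0.31).

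**Figure D4:**
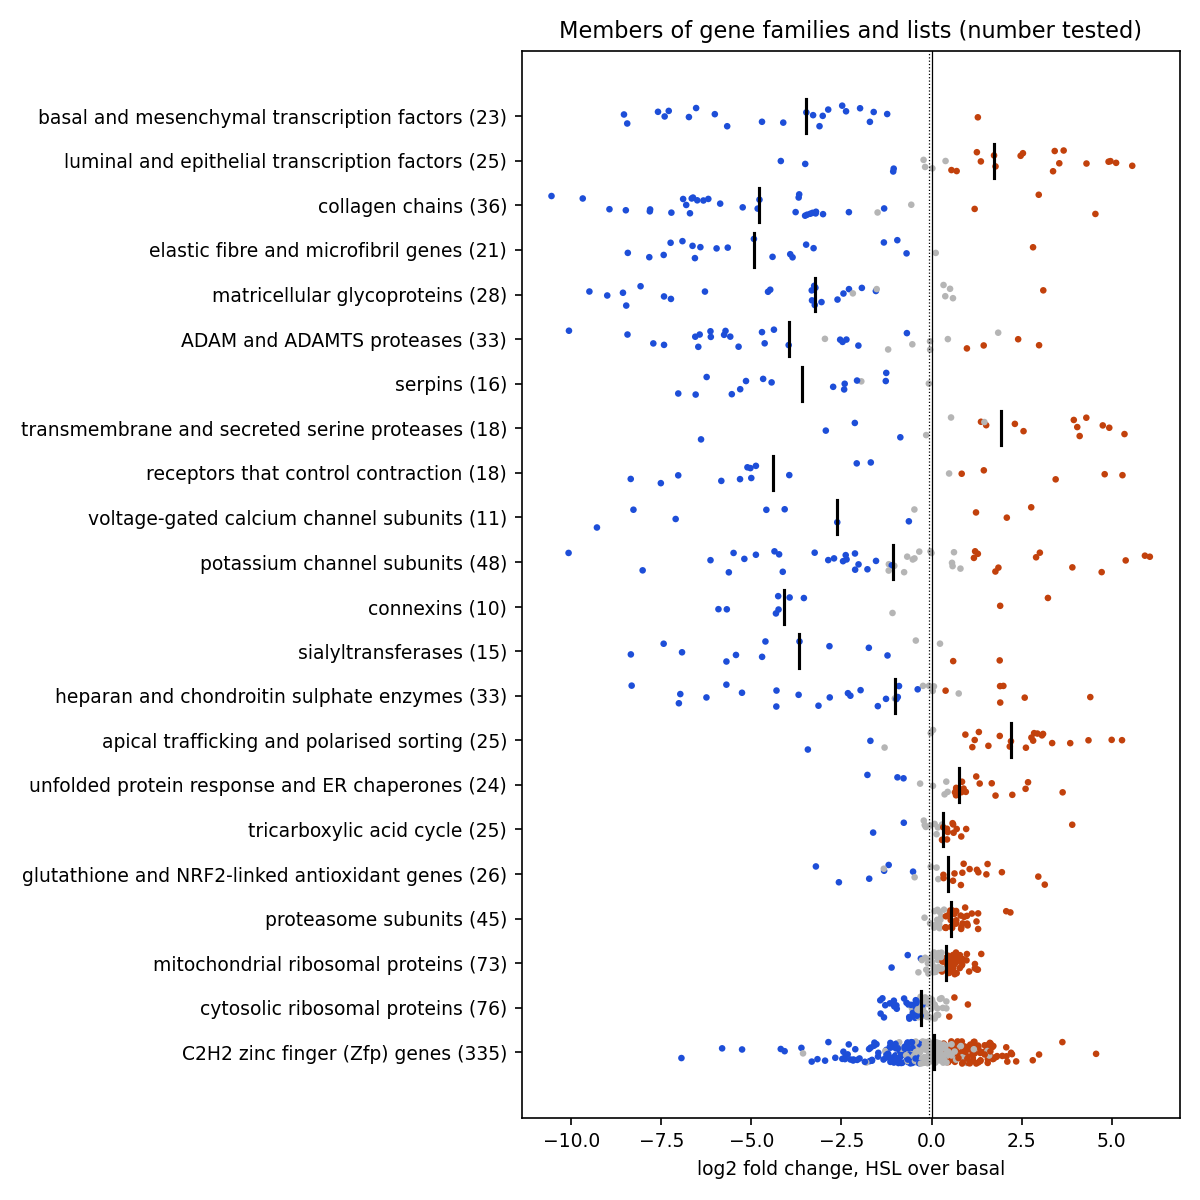
Each point is a member of the family or list named on the y axis (number tested in brackets), placed by its log2 fold change, HSL over basal; orange and blue mark calls, grey the rest, black bars the medians and the dotted line the median of all genes, -0.06. Collagen chains centre on -4.80 and apical trafficking genes on 2.20, while proteasome subunits lie in a narrow band around 0.55.

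Receptors that control contraction differed in both directions, with 12 lower and 5 higher of 18 tested. Oxtr, the oxytocin receptor, was at 1224 to 2219 CPM in basal libraries, median 1614, and at 6.03 to 45.1 in HSL libraries, median 7.5, the highest value being sample 1 (-7.51 ± 0.57). P2ry1, a receptor for ADP, was at 10.8 to 30.8 against 0 to 0.204 CPM (-8.35 ± 0.55, and -9.04 without sample 1). The members in the other direction were receptors for angiotensin, adrenaline and ATP. Agtr1a, the angiotensin II receptor, was at 7.54 to 29.1 CPM in basal and 371 to 1298 in HSL libraries (5.30 ± 0.24), and shares 14.7% of its span with another gene. Adra1a, an alpha-adrenergic receptor, was called higher (4.80 ± 0.58, adjusted p = 1.90e-04) and in HSL libraries was at 123 CPM in sample 1 and at 1.24 to 5.98 in the other 5. Its basal libraries were at 0 to 2.12 CPM, so the groups overlapped, although HSL was above basal in 6 of 6 samples. Pericyte and endothelial markers moved in the same direction as the lower receptors, with median log2 fold changes of -3.08 and -2.56.

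Downstream of these receptors the calcium and cyclic nucleotide machinery also shifted. Of 11 voltage-gated calcium channel subunits 7 were lower and 3 higher. Cacna1c, the pore of the L-type channel of smooth muscle, was at 12.7 to 88.8 in basal and 0.138 to 0.476 CPM in HSL libraries (-7.10 ± 0.43), and its accessory subunit Cacna2d1 at 37.8 to 93.3 against 0.0397 to 0.443 (-8.27 ± 0.47, and -8.89 without sample 1). Mrvi1, a partner of the kinase encoded by Prkg1 at the calcium store, fell by 8.69 ± 0.70, and Prkg1, the cyclic GMP-dependent kinase, fell by 7.03 ± 0.58. Of 19 calcium store and entry genes 9 were lower and 4 higher, with a median of -0.48. Among the higher members Orai1, the channel of store-operated entry, was at 23 to 30.9 in basal and 71 to 166 CPM in HSL libraries (2.12 ± 0.22), Itpr3, an inositol trisphosphate receptor, rose by 1.70 ± 0.24, and Atp2a3, a calcium pump of the store, by 2.14 ± 0.44. Atp2a2, the widely expressed pump, was not called, at 715 to 1000.0 against 579 to 1045 CPM (0.07 ± 0.12, adjusted p = 0.603). Adenylyl cyclases were lower in 6 of 9 and higher in 0, led by Adcy7 (-6.69 ± 0.67), and Pde4b, which degrades cyclic AMP, fell from 1507 (935 to 1825) to 79.1 (54.6 to 144) CPM (-4.13 ± 0.32).

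Cytoskeletal families held members called in both directions. The naming rule takes the largest folds of each direction in every family, so opposite pairs are partly its product. Of 15 tubulins 5 were higher and 6 lower, or 73.3% called against 65.1% of all genes. Tubb6 fell from 882 (579.7 to 1254) to 73.1 (37.6 to 85.3) CPM (-3.69 ± 0.16), whereas Tuba8 rose by 4.60 ± 0.17 and Tubb4a by 4.23 ± 0.31. Of 14 unconventional myosins, which carry vesicles along actin, 4 were higher and 4 lower, or 57.1% called against 65.1% of all genes. Among them Myo5a fell from 28.5 (20.1 to 32.1) to 2.56 (1.43 to 8.12) CPM (-3.27 ± 0.31). Its neighbour on chromosome 9, Myo5c, rose from 1.71 (0 to 3.09) to 65.4 (28.1 to 78.8) CPM (5.29 ± 0.69). Myo5a spans 75071015 to 75223688 and Myo5c 75232020 to 75305451 of that chromosome, on the same strand. Pls1, the plastin of microvilli, rose by 5.31 ± 0.32, and Kif5c, a kinesin heavy chain, by 3.78 ± 0.19. Of 15 PDZ-LIM and four-and-a-half-LIM proteins 10 were lower and 2 higher, with Pdlim3, an actinin-binding protein, at -5.78 ± 0.61. Cavin1, a coat protein of caveolae, fell by 2.85 ± 0.10. Primary cilium genes moved little, with a median of -0.23, 9 higher and 19 lower of 45.

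Channels and transporters changed in both directions. Solute carriers were nearly balanced, with 100 higher and 92 lower of 264 tested, a median of 0.06 and 72.7% called. Slc2a4, the insulin-responsive glucose transporter, was at 123 to 176 in basal libraries, median 151, and at 1.00 to 1.28 CPM in HSL libraries, median 1.08 (-7.06 ± 0.12, adjusted p = 1.08e-07). It is also a gene of adipocytes, of whose 6 listed markers only Fabp4 passed the filter on low counts, at -2.63. The part of adipocytes in its level was not tested. Slc1a3, a glutamate transporter, fell by 8.41 ± 0.55, and it fell by 9.14 without sample 1. Slc12a2, the sodium, potassium and chloride cotransporter of secretory epithelia, was named for its level after its values were seen and reached 4349.5 to 22001 CPM in HSL libraries, against 199 to 966 in basal libraries (4.91 ± 0.23). Slc44a4, a choline and thiamine diphosphate transporter, rose by 5.17 ± 0.18. Of 6 water channels tested 2 were higher and 3 lower. Aqp5, an apical channel of glands, rose from 97.5 (49.6 to 283) to 3903 (1557 to 5746) CPM (5.14 ± 0.22) and Aqp1 fell from 114 (40.3 to 151) to 18.6 (11.6 to 28.2) CPM (-2.30 ± 0.20). Aqp1 is also a gene of endothelium and red cells, whose markers were lower in HSL as well.

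Potassium channels were lower in 22 of 48 and higher in 12. Kcnq5, a voltage-gated channel, was at 48.9 to 225 in basal against 0.278 to 0.576 CPM in HSL libraries (-8.02 ± 0.41). Kcnmb1, a subunit of the large-conductance channel of smooth muscle, fell by 10.07 ± 0.48, and it fell by 10.87 without sample 1, but its whole span lies within another gene, which makes its level uncertain. Among 15 TRP channels 9 were lower and 3 higher. Trpc6, a receptor-operated cation channel, was at 0.921 to 5.18 in basal and 10.7 to 133 CPM in HSL libraries (4.90 ± 0.31) and shares 26.8% of its span. Abcc8, the sulphonylurea receptor of ATP-sensitive potassium channels, was at 3.13 to 7.86 against 69.6 to 291 CPM (5.03 ± 0.22). Chloride channels and anoctamins were higher in 12 of 26 and lower in 10, with Ano9 at 5.47 ± 0.84 and the highest member at 6.36.

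**Figure D5:**
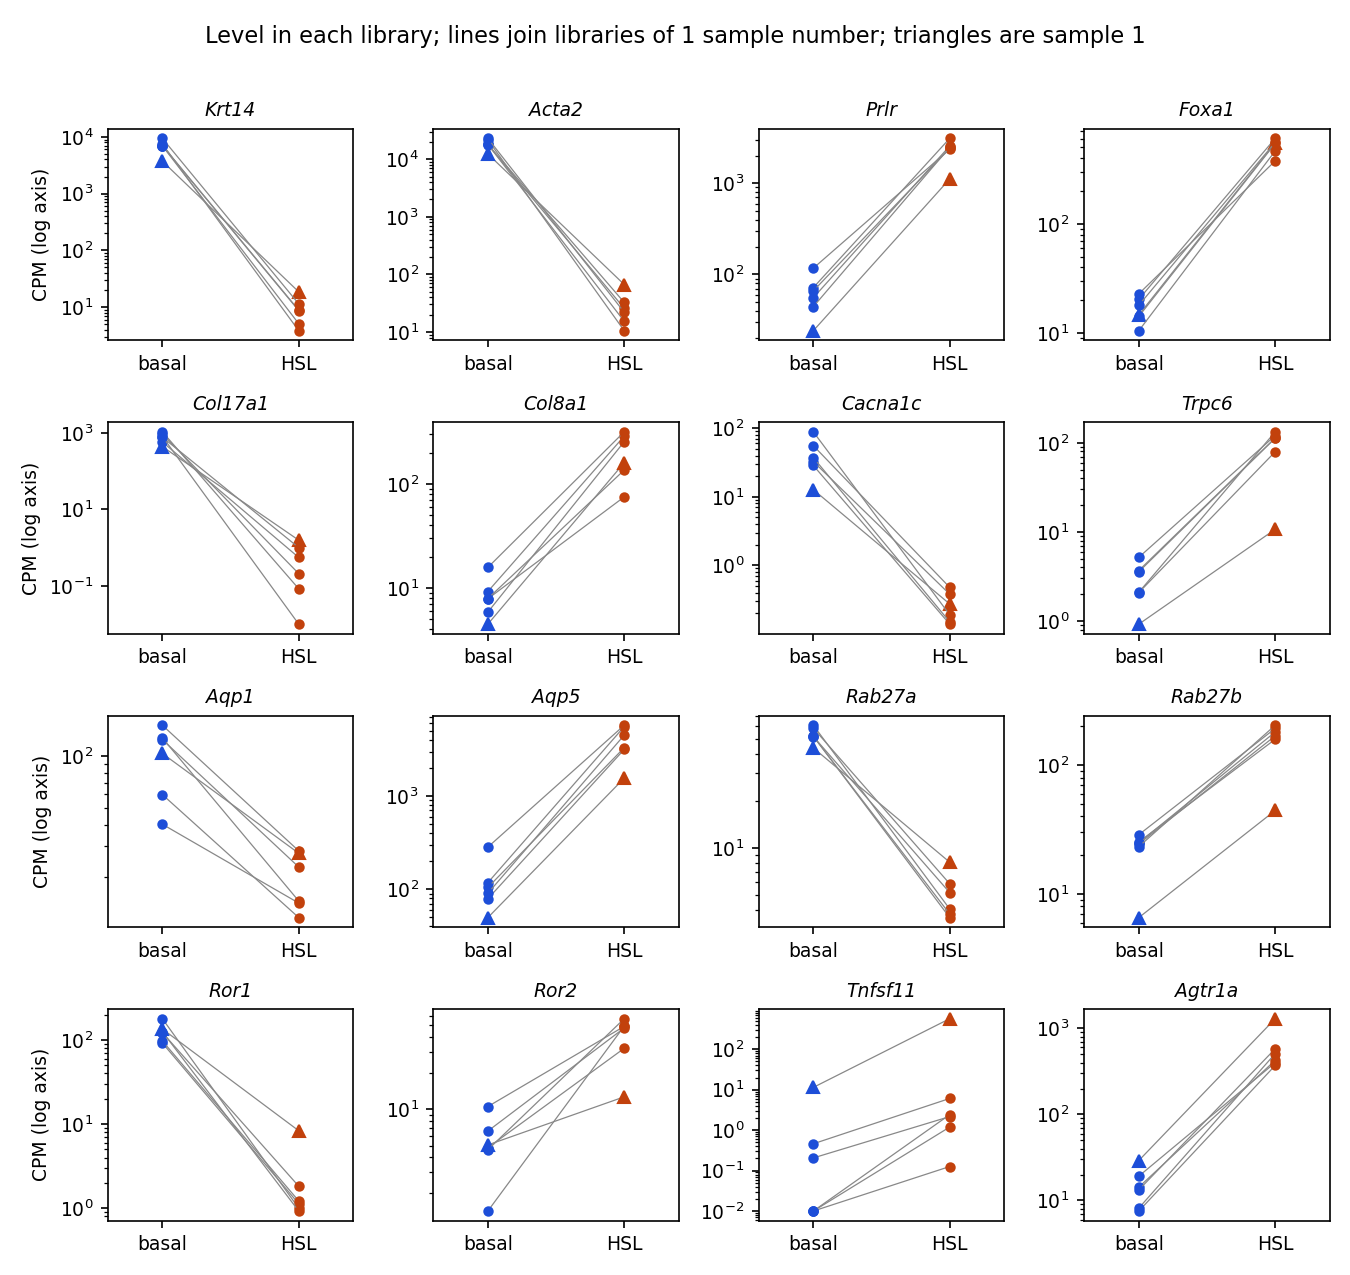
CPM on log axes for 16 genes in the 6 basal (blue) and 6 HSL (orange) libraries; grey lines join libraries of 1 sample number, triangles mark sample 1, and values under 0.01 are drawn at 0.01. The pairs Rab27a and Rab27b, Ror1 and Ror2, and Aqp1 and Aqp5 run in opposite directions in all 6 samples, and sample 1 stands far above the others for Tnfsf11, at 572 CPM in HSL.

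Cell contacts differed by family. Connexins, which form gap junctions, were lower in 7 of 10 and higher in 2. Gja1, the connexin of myoepithelium, fell from 1128 (908 to 1232) to 17.3 (11.3 to 53.8) CPM (-5.68 ± 0.39). The higher members were Gjb1 (3.23) and Gjb2 (1.91). Protocadherins were lower in 6 of 7: Pcdh7 fell by 7.15 ± 0.60 and Pcdh1 rose by 2.48 ± 0.17. Tetraspanins, organisers of membrane domains, were split into 12 higher and 11 lower of 24. Tspan1 rose from 13.7 (6.32 to 41.3) to 624 (241 to 954) CPM (5.16 ± 0.27), Cd82 by 3.86 ± 0.14, and Tspan18 fell by 6.62 ± 0.42.

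Signalling families also had members called in both directions, and the naming rule picked from both. Ror1 and Ror2, receptors for Wnt5a, were at 91.9 to 179 and 1.43 to 10.5 CPM in basal libraries and at 0.926 to 8.33 and 12.7 to 56.5 in HSL libraries (-6.18 ± 0.48 and 2.93 ± 0.45). Receptor-type tyrosine phosphatases were lower in 12 of 17 and higher in 3, with Ptprt at -7.09 ± 0.31 and Ptprf at 1.58 ± 0.11. Dual-specificity phosphatases, which switch off MAP kinases, were higher in 5 and lower in 8 of 20, or 65% called against 65.1% of all genes. Dusp4 was at 10.9 to 18 in basal and 140.0 to 358 CPM in HSL libraries (3.87 ± 0.12, adjusted p = 4.67e-07), Dusp10 rose by 3.08 ± 0.21, and Dusp5 fell by 2.16 ± 0.28. Neurotrophin signalling was lower in 7 of 9: Ntrk3, a neurotrophin receptor, was at 21.4 to 37.4 against 0.179 to 0.358 CPM (-7.07 ± 0.27), and the ligands Ntf5 and Bdnf fell by 2.51 ± 0.09 and 2.15 ± 0.39. The groups of Bdnf overlapped, although HSL was below basal in 6 of 6 samples. Sort1, the sorting receptor sortilin, rose from 17.3 (14.1 to 27.2) to 450.3 (321 to 513) CPM (4.55 ± 0.15). Gas1, a Hedgehog co-receptor, fell by 8.65 ± 0.68, and Cdon, another co-receptor of that pathway, rose by 2.36 ± 0.28.

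The RANK system ran between the populations. Tnfrsf11a, which encodes RANK, was at 68.1 to 147 in basal and 1.03 to 12.2 CPM in HSL libraries (-5.00 ± 0.57). Tnfsf11, its ligand and a progesterone target, was called higher (4.91 ± 0.51, adjusted p = 8.62e-05), but its level rested on sample 1. That HSL library held 572 CPM and the other 5 held 0.126 to 6.09, so the ranges of the groups overlapped, although HSL was above basal in 6 of 6 samples. Without sample 1 the log2 fold change was 4.78 (adjusted p = 0.00159). Among interleukin receptors 8 of 33 were higher and 10 lower, with Il18r1 at 4.65 ± 0.35 and Il4ra at -1.91 ± 0.13. Purine receptors and ecto-enzymes were lower in 16 of 25 and higher in 4. Enpp1, which makes pyrophosphate outside the cell, fell from 477 (348 to 521) to 4.59 (1.96 to 10.7) CPM (-6.64 ± 0.31), and Entpd3, which hydrolyses extracellular nucleotides, rose from 2.08 (0.987 to 4.14) to 84.8 (34.2 to 95.6) CPM (5.16 ± 0.31).

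Apical trafficking genes were mostly higher in HSL. Of 25 tested 20 were higher, 2 lower and 3 not called, with a median of 2.20. Rab25, a GTPase of apical recycling, was at 14.3 to 26.4 in basal and 116 to 198 CPM in HSL libraries (3.06 ± 0.19), and Mal2, a raft protein of transcytosis, at 6.06 to 9.78 against 79.7 to 131 (3.85 ± 0.15). Rab27a and Rab27b, which dock secretory vesicles, went in opposite directions. Rab27a fell from 51.9 (43.7 to 61) to 4.61 (3.57 to 8.09) CPM (-3.43 ± 0.22) and Rab27b rose from 24.7 (6.56 to 28.8) to 175 (44.4 to 204) CPM (2.82 ± 0.09). Rab GTPases as a family were balanced, with 22 higher and 20 lower of 51. Synaptotagmins, calcium sensors of vesicle fusion, were higher in 9 and lower in 5 of 18: Syt7 rose by 4.82 ± 0.33 and Syt9 fell by 6.36 ± 0.85, or 7.19 without sample 1.

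Glycosylation differed in kind. Sialyltransferases were lower in 11 of 15 and higher in 2. St6gal1, which adds alpha-2,6-linked sialic acid to N-glycans, fell from 77.7 (69.3 to 141) to 1.24 (0.538 to 21.1) CPM (-5.69 ± 0.61), and St3gal1, which caps O-glycans, rose from 23.9 (18 to 36.5) to 112 (40.1 to 135) CPM (1.89 ± 0.21). Of 13 enzymes that start O-glycans 6 were higher and 3 lower, with Galnt16 at -7.17 ± 0.78 and Galnt3 at 2.25 ± 0.14. Mucins, the proteins that carry O-glycans, were higher in 4 of 5 tested and lower in 0. Muc1 rose from 8.43 (4.78 to 12.4) to 29.6 (15.6 to 40.4) CPM (1.81 ± 0.34). Muc13 rose by 5.26 ± 0.33, but sample 1 held 1.72 CPM in HSL where the other 5 held 51.2 to 166. Basal libraries held 0.193 to 6.90 CPM of Muc13, so the groups overlapped. Heparan and chondroitin sulphate enzymes were lower in 20 of 33 and higher in 6, with Hs6st2 at -8.32 ± 0.54 and Sulf1 at -6.25 ± 0.23 against Chst8 at 4.41 ± 0.21.

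The secretory pathway upstream showed smaller differences. Unfolded protein response and chaperone genes were higher in 16 of 24 and lower in 3, with a median of 0.76. The stress sensors Ern1 and Eif2ak3 rose by 2.61 ± 0.19 and 2.68 ± 0.21. Atf4, a factor downstream of Eif2ak3, fell from 460.1 (233 to 538) to 131 (88.6 to 165) CPM (-1.78 ± 0.13), with no overlap. Calr, an abundant chaperone, was not called (0.45 ± 0.25, adjusted p = 0.145), and was called higher at 0.67 without sample 1 (adjusted p = 0.00767). Coat proteins and translocon subunits were higher in 13 and lower in 8 of 29. Among their COPII subunits Sec23b rose by 1.60 ± 0.16, and Sec24d, a coat subunit for large cargo such as procollagen, fell by 1.70 ± 0.11.

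Metabolic lists shifted modestly, with large changes in single enzymes. In the tricarboxylic acid cycle list 13 of 25 were higher and 2 lower, with a median of 0.32, and without sample 1 the counts were 18 and 2. Pcx, pyruvate carboxylase, which refills the cycle, rose from 16.2 (8.28 to 29.4) to 262 (109 to 408) CPM (3.90 ± 0.31). Of 21 glycolysis genes 9 were higher and 3 lower: Hk2, a hexokinase, rose by 2.55 ± 0.26 and Pfkfb3, a regulator of phosphofructokinase, by 2.63 ± 0.24. Ldhb, the heart-type lactate dehydrogenase subunit, fell from 58 (49.6 to 71.6) to 0.82 (0.325 to 3.97) CPM (-5.99 ± 0.51). Of 28 fatty acid oxidation genes 15 were higher and 8 lower, with Cpt2, the inner membrane carnitine transferase, at 2.11 ± 0.17.

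Nitrogen metabolism held large changes in a few enzymes. Arg1 and Arg2, the 2 arginases, rose from medians of 2.16 (1.03 to 3.57) and 14.2 (10.1 to 24.8) to 66.7 (33.0 to 118) and 393 (334 to 422) CPM (4.96 ± 0.16 and 4.69 ± 0.19). Glul, glutamine synthetase, rose from 69.9 (28.1 to 116) to 2117 (231 to 3051) CPM (4.59 ± 0.32). Bcat1, a branched-chain aminotransferase, fell by 6.42 ± 0.61, with 136 CPM in 1 basal library and medians of 8.79 in basal and 0.188 in HSL libraries. Over the whole amino acid and one-carbon list the directions were even, with 12 higher and 10 lower of 35.

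Of 26 antioxidant genes of the glutathione and NRF2 list 15 were higher and 6 lower. Gclc, the rate-limiting enzyme of glutathione synthesis, was at 61.9 to 98.7 in basal and 349 to 889 CPM in HSL libraries (3.14 ± 0.22), and Gsr, which reduces glutathione, at 49.1 to 84.7 against 328 to 722 (2.96 ± 0.17). Nqo1, a classic NRF2 target, went the other way, from 51.8 (33.6 to 61.8) to 8.07 (5.55 to 12.8) CPM (-2.57 ± 0.25). Glutathione transferases split, Gsta4 rising by 3.56 ± 0.19 and Gstm1 falling by 2.31 ± 0.19. Cytochromes P450 were lower in 12 and higher in 7 of 25. Cyp1b1, which hydroxylates oestrogens, fell from 223 (173 to 261) to 1.56 (1.22 to 14.1) CPM (-6.58 ± 0.54), while Cyp3a57 rose by 5.16 ± 0.19. Members of that cluster are similar in sequence, so reads may be shared among them. Sult2b1, a sulphotransferase of cholesterol and steroids, rose by 3.71 ± 0.16.

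Protein turnover and mitochondrial translation were higher by small amounts in many genes at once. Proteasome subunits were higher in 30 of 45 and lower in 0, with a median of 0.55. Without sample 1 there were 38 higher. The 7 members at 2-fold or more were 15.6% of those tested, near the 15.5% of all genes at least 2-fold higher. Among all genes that reached 100 to 1000 CPM in the higher population, 48% were higher, with a median of 0.24. The largest proteasome folds were in Psmb8 and Psmb9, the inducible catalytic subunits that interferon raises. They were at 2.19 ± 0.29 and 2.07 ± 0.30, each with no overlap. Psmb8 shares 57.3% of its span with another gene. Psmd3, a subunit of the regulatory lid, rose from 243 (217 to 348) to 672 (406 to 773) CPM (1.29 ± 0.20). Psma7, a core subunit, was not called (0.24 ± 0.14, adjusted p = 0.167), and was called higher at 0.37 without sample 1 (adjusted p = 0.00641). Mitochondrial ribosomal proteins were higher in 43 of 73 and lower in 3, with a median of 0.41; Mrpl38 rose by 1.38 ± 0.21 and Mrpl48 fell by 1.11 ± 0.10. Cytosolic ribosomal proteins gave 29 lower and 3 higher of 76 at a median of -0.30, or 26 and 6 without sample 1. They have many near-identical copies in the genome, so their counts are uncertain.

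Regulators of RNA splicing were mostly lower. Of 18 tested 12 were lower and 4 higher. Esrp2 and Esrp1, which impose epithelial splice forms, rose from 11.2 (7.15 to 23.8) to 182 (123 to 188) CPM (3.87 ± 0.29) and from 44.4 (36.9 to 62.4) to 92.5 (72.1 to 123) CPM (1.08 ± 0.09), and Rbm47 rose by 2.52 ± 0.19. Those 3 share 18.9 to 27% of their spans with other genes. Rbpms, a splicing regulator of smooth muscle, fell from 851 (418 to 876) to 51.1 (42.8 to 63.4) CPM (-3.91 ± 0.15), and Khdrbs3 fell by 5.73 ± 0.52. All 5 had no overlap between groups.

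The remaining lists were mixed. Of 22 clock genes 9 were higher and 6 lower, with Nr1d1 at 1.83 ± 0.21 and Bhlhe40 at -0.87 ± 0.13. Cry2 rose by 2.94 ± 0.17 and shares 77% of its span. Of 23 imprinted genes 13 were lower and 3 higher. Peg3 fell by 3.13 ± 0.60, but it was lower in 5 of 6 samples only, not in sample 1, and its groups overlapped. Igf2r, which clears IGF2, and Slc22a18 rose by 2.09 ± 0.19 and 4.60 ± 0.21. Igf2r shares 32.5% of its span with another gene. Among genes of DNA methylation and Polycomb, 8 were higher and 7 lower of 27, with Tet1, a methylcytosine oxidase, at -4.16 ± 0.74 and Dnmt1, the maintenance methyltransferase, at 1.05 ± 0.17. The groups of Dnmt1 overlapped, although HSL was above basal in 6 of 6 samples. In the BCL2 family and death receptor list 9 were higher and 7 lower of 22. Bcl2, the founding survival factor, fell from 42.5 (23 to 52.5) to 2.56 (1.05 to 7.53) CPM (-3.75 ± 0.49) and Bok, a pro-apoptotic relative, by 5.69 ± 0.37, while Bik, a BH3-only member, rose by 3.90 ± 0.17. Of 33 lysosome and autophagy genes 16 were higher and 12 lower, 6 of them by 2-fold or more. Long intergenic RNAs were called in 53.2% of 410, with 106 higher and 112 lower, and processed pseudogenes in 33.7% of 887.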

How the data were processed

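RNA sequencing was done on cDNA made from 2 ng of total RNA with a Smart-Seq v4 kit, in libraries built with Nextera XT from 150 pg of cDNA, per the labels' protocols; neither marks the strand, so genes that overlap on opposite strands cannot be told apart. The authors deposited whole-number counts per gene, per the file headers, on build GRCm38 per the submitters' processing notes; no aligner or counter is named in the labels or headers read here. The RPKM values the authors deposited beside them were used only for checking. Of 52636 gene identifiers 52489 matched GENCODE M21, and the other 147 were left out (at most 0.00542% of counts). The width in the files equals the genomic span, introns included, for 85.6% of identifiers. Among 1264 coding genes that lie entirely within the span of other genes, 1134 have no count in any library, so levels of genes with shared spans are uncertain. Named genes not marked above also share spans. The share was 23.6% for Cd82, 23.1% for Gas1, 20.1% for Atp2a2 and 20.0% for Bcl2. It was 10.3 to 16.7% for Sult2b1, P2ry1, Tuba8, Nr1d1, Rbpms, Prlr, Galnt16, Pfkfb3, Klf13, Muc13 and Abcc8.

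Counts of the 12 libraries were filtered with filterByExpr (minimum count 10), scaled with TMM factors and fitted in edgeR 4.0.16 (R 4.3.3) with the sample number as a block. All adjusted p-values are from its robust quasi-likelihood F test with Benjamini-Hochberg adjustment over 15601 genes, and standard errors are the log2 fold change over the root of F. No 2 libraries were identical. The numbers pair the libraries: deviations from the population means correlated at r = 0.126 to 0.363 across genes for each of the 6 pairs, although HSL sample 6 correlated best with basal sample 4, at 0.145. Where nothing says that numbers are separate animals, p-values measure the spread between these libraries. Total counts set the precision of low levels, and intervals cover counting error only. Tables were joined with Python 3.11.15 and pandas 2.3.3.

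Named genes were the 15 largest folds in each direction at a mean of 50 CPM or more with no overlap and at most 10% shared span, up to 3 called members per direction in each family or list at 10 CPM or more, and up to 2 members not called; not all are printed. Notch3, Ptprc, Mmp2, Gjb1, Gjb2 and genes said to have been chosen after their values were seen are outside that rule or its limits. Families and lists were chosen with earlier results of these data known. The alternatives were other tools, scalings, filters, sample subsets and no block. AP libraries entered only the alternative with all 18 libraries.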

Additional observations from a re-analysis of the deposited data

Results flagged for a closer look

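A library was marked where its gap to the nearest of the other 5 of its population was large against the range of all 6, by Dixon's 95% critical value. Of 139 groups tested 28 were marked, where chance marks about 1 in 20, and 25 of the 28 were libraries of sample 1.

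In HSL libraries sample 1 was lowest for Prlr (1117 CPM, next 2369), Proc (34.18), Slc12a2 (4350), Rab27b (44.45) and Psmb8 (40.02), and for the summed hormone-sensing markers (4982 CPM, next 7902). It was highest for Id4 (2.231), Oxtr (45.08, next 8.253), Ntrk3 (0.3576), Plat (7.187), Ror1 (8.328), Ltbp2 (31.01) and Ldhb (3.968), all genes lower in HSL. It was also highest for the summed basal markers (189.5 CPM, next 74.47) and leukocyte markers (73.33, next 20.03). Tnfsf11 stood at 571.7 CPM in that library, where the next was 6.087, and Agtr1a at 1298, where the next was 579.6.

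In basal libraries sample 1 was lowest for Fmod (146.7 CPM, next 422.8), Pcdh7 (36.36), Rab27b (6.556), Ntrk3 (21.36) and Tnfrsf11a (68.14), and highest for Esrp2 (23.83) and Tnfsf11 (11.42, next 0.4605). Its slope of log2 ratios on the median of the other samples, 0.6668, was below the next, 0.9345. Marks outside sample 1 were Fmod in HSL sample 6 (0.03968 CPM), Aqp5 in basal sample 4 (283.1) and Bhlha15 in basal sample 5 (2.386).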

How the results depend on the processing

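The count of genes called kept within 1.5 times of the reported one, 4671 higher and 5481 lower, except in 2 settings. Tested against a 2-fold difference (glmTreat) it was 1637 higher and 2828 lower, and in samples 1 to 3 alone, with 3 libraries a population, 2550 and 3368. Without the replicate block, so without the pairing by sample number, it was 4332 and 4989; no call of a named gene changed, and 4 counts of called genes in lists, each of 5 or fewer, moved by over 1.5 times. Leaving out each sample in turn gave 4135 to 4988 higher and 4919 to 5754 lower, the most without sample 1. DESeq2, limma-voom, other scalings and other filters lay between 4240 and 5241 higher and 4787 and 5841 lower when the fit with all 18 libraries is included. Over 167 named genes and their alternatives, 2823 of 2838 pairs kept direction and call, 11 lost the call, 4 gained it and 0 reversed. Lost calls were in small folds under the 2-fold test and, in samples 1 to 3, Col6a3, Psmd3, Peg3 and Dnmt1. Calr was also called with all 18 libraries (adjusted p = 0.0463) and Psma7 in samples 4 to 6 (0.0308). Depth limits the lowest levels: P2ry1 had 17 counts over the 6 HSL libraries.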

Other observations

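Sample 1 stood far from the other samples in single genes. The genes given here were chosen after their values were seen. In its HSL library Calca, which encodes calcitonin, stood at 2533 CPM, where the other 5 held 0.273 to 13.3. Its basal library held 62.2 CPM of Calca against at most 1.26 in the others. Ido1, an enzyme of tryptophan breakdown, and Aoc1, an amine oxidase, went the other way, at 16.5 and 5.77 CPM in HSL sample 1 against 1689 to 3725 and 583 to 2275 in the other HSL libraries. In the basal libraries these 2 genes were at 1.46 and 0.579 CPM in sample 1 and at 38.4 to 199.8 and 19.7 to 105 in the others, so the basal level moved with the HSL level of the same number.

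A pair of replication genes stood high in both libraries of sample 1. Mcm5, a helicase subunit, was at 144 CPM in HSL sample 1 against 6.79 to 12.7, and at 359 in basal sample 1 against 12.9 to 36.6. E2f1, a factor of S phase entry, was at 29.6 against 0.329 to 1.57 and at 70.3 against 1.43 to 6.83. Cd74, the invariant chain of MHC class II, was at 591 CPM in HSL sample 1 against 6.81 to 109.9. The summed leukocyte markers were also highest in that library, at 73.33 CPM against at most 20.03, and their part in the Cd74 level was not tested.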
